A study of Mus musculus with 8 samples.

Results

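Heat shock and unfolded protein response genes were examined in hematopoietic stem cells (HSCs) of mice with hemolytic anemia, as a measure of protein stress and of the handling of the cells. The rule took the rows of the deposited expression tables whose symbol was one of 6 cytosolic chaperone genes (Hspa1a, Hspa1b, Dnajb1, Hsp90aa1, Hspa8 and Hsph1) or one of 4 endoplasmic reticulum (ER) stress genes (Hspa5, Ddit3, Atf4 and Xbp1). All 10 were found among the 15142 genes listed in all tables. The libraries came from wild-type C57BL/6 mice: 3 of control marrow HSCs (control BM HSC), 3 of marrow HSCs after phenylhydrazine (PHZ BM HSC) and 2 of spleen HSCs after the same treatment (PHZ SP HSC, also called the spleen group). Phenylhydrazine (PHZ) destroys red blood cells and was injected at 60 mg/kg in 2 doses, with cells taken 3 days after the last dose, whereas the controls are labelled PBS. HSCs were sorted as lineage-negative, Sca-1+ c-kit+ CD150+ cells low in or lacking CD48. Untreated spleen HSCs were not analysed here, and marrow and spleen were dissociated in different ways, so tissue, dissociation and response cannot be told apart in the spleen group. The labels do not give the animals' age per library or say whether libraries came from separate or pooled animals, so p-values measure the spread between these libraries, which may be technical.

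Chaperones hold unfolded proteins and help them to fold. In the cytosol, misfolded protein releases the transcription factor HSF1 from chaperones, and HSF1 binds heat shock elements, repeats of the unit GAA in alternating orientation, to switch on inducible chaperones such as the HSP70 genes Hspa1a and Hspa1b. In the ER, unfolded protein is sensed by IRE1 (Ern1), PERK (Eif2ak3) and ATF6. IRE1 splices Xbp1 mRNA, PERK slows translation while favouring that of Atf4, which drives Ddit3 (CHOP), and cleaved ATF6 binds ER stress elements in genes such as Hspa5 (BiP). Adult HSCs are known for a low rate of protein synthesis and for sensitivity to misfolded protein.

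Promoter sequences are shown for the members whose promoter held a pair of heat shock units or an ER stress element. RefSeq sequences (build GRCm38.p6) matched 8 of the 10 genes, with no entry for Hsp90aa1 or Hspa8, and the 250 bases before each start site were searched on both strands. Capitals mark 2 heat shock units (GAA and TTC separated by 2 bases, in either order) in the first 3 sequences, and an ER stress element (CCAAT and CCACG separated by 9 bases) in the last, 5′ to 3′ on the gene's strand. The HSP70 windows are the 150 bases before the start. For Hsph1 and Hspa5 only 30 bases around the element are shown, because annotated transcripts of these genes also begin further upstream, in Hspa5 120 bases before the start used.
Hspa1a, chr17:34972157-34972306, minus strand: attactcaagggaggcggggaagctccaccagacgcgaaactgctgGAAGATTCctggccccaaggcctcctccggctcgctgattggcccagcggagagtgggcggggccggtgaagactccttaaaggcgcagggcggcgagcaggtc
Hspa1b, chr17:34959239-34959388, minus strand: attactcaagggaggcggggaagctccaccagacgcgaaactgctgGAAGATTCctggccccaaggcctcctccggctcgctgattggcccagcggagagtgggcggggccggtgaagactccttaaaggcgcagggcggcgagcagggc
Hsph1, chr5:149636351-149636380, minus strand: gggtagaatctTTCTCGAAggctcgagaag
Hspa5, chr2:34772020-34772049, plus strand: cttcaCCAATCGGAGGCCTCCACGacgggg

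The Hspa1a and Hspa1b windows were identical at 149 of 150 bases. The paired heat shock units began 104 bases before the start in both HSP70 genes and 33 and 54 bases before the 2 listed starts of Hsph1, both of which lie inside the annotated gene, while 12.8% of all 32851 promoters held such a pair. The ER stress element of Hspa5 began 65 bases before the start, and 0.113% of all promoters held one. Neither 3 alternating heat shock units (0.466% of all promoters), the C/EBP-ATF element TGATGNAA (3.45%) nor TATAAA (12.4%) occurred in the searched 250 bases of the matched members. A match of letters is a description of the window and not evidence of binding.

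Depth ranged from 8222362 to 13212932 reads per library, and the ribosomal RNA precursor gene Rn45s made up 43.3% to 48.5% of them. Levels are given as FPKM (reads per kilobase of gene, scaled for depth), and each log2 fold change is a difference of log2(FPKM + 1), so that changes of weakly expressed genes are understated. Reads carried no molecular identifiers, so a limit stated in reads reflects counting error alone. HSC markers were present in all groups, with a summed level over 9 genes of 430 to 568 FPKM in control BM HSC, 479 to 576 in PHZ BM HSC and 533 to 555 in PHZ SP HSC. One library stood apart for the genes described here, PHZ BM HSC replicate 3, and the values that moved most without it are given both ways.

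The inducible HSP70 genes were close to absent in every library. Hspa1a (chr17:34969359-34972156) had 0 reads in each of the 3 control BM HSC libraries. It had 0, 2 and 62 reads in PHZ BM HSC replicates 1, 2 and 3, and 0 and 5 reads in PHZ SP HSC replicates 1 and 2. The value of 62 reads, or 1.62 FPKM, was the only one above 0.162 FPKM, and a count of 0 allows up to 0.0786 to 0.112 FPKM in the libraries where it was found. Hspa1b (chr17:34956429-34959238) had 1, 1 and 16 reads in control BM HSC, 4, 18 and 5 in PHZ BM HSC and 20 and 6 in PHZ SP HSC. The 3 groups overlapped for Hspa1b, and the highest value, 0.684 FPKM, was that of PHZ BM HSC replicate 2. Both genes missed the minimum of 1 FPKM in 2 libraries and were not tested. The annotated transcripts of these genes share 58.8% of the 50-base stretches of Hspa1a, so the split of reads between them is uncertain, and their sum is the safer measure. The sum was 0.0365, 0.0395 and 0.444 FPKM in control BM HSC, 0.136, 0.755 and 1.75 in PHZ BM HSC, and 0.638 and 0.368 in PHZ SP HSC. It amounted to between 0.0321% and 0.977% of the level of Hspa8, the constitutive cytosolic HSP70, in the same library.

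**Figure D1:**
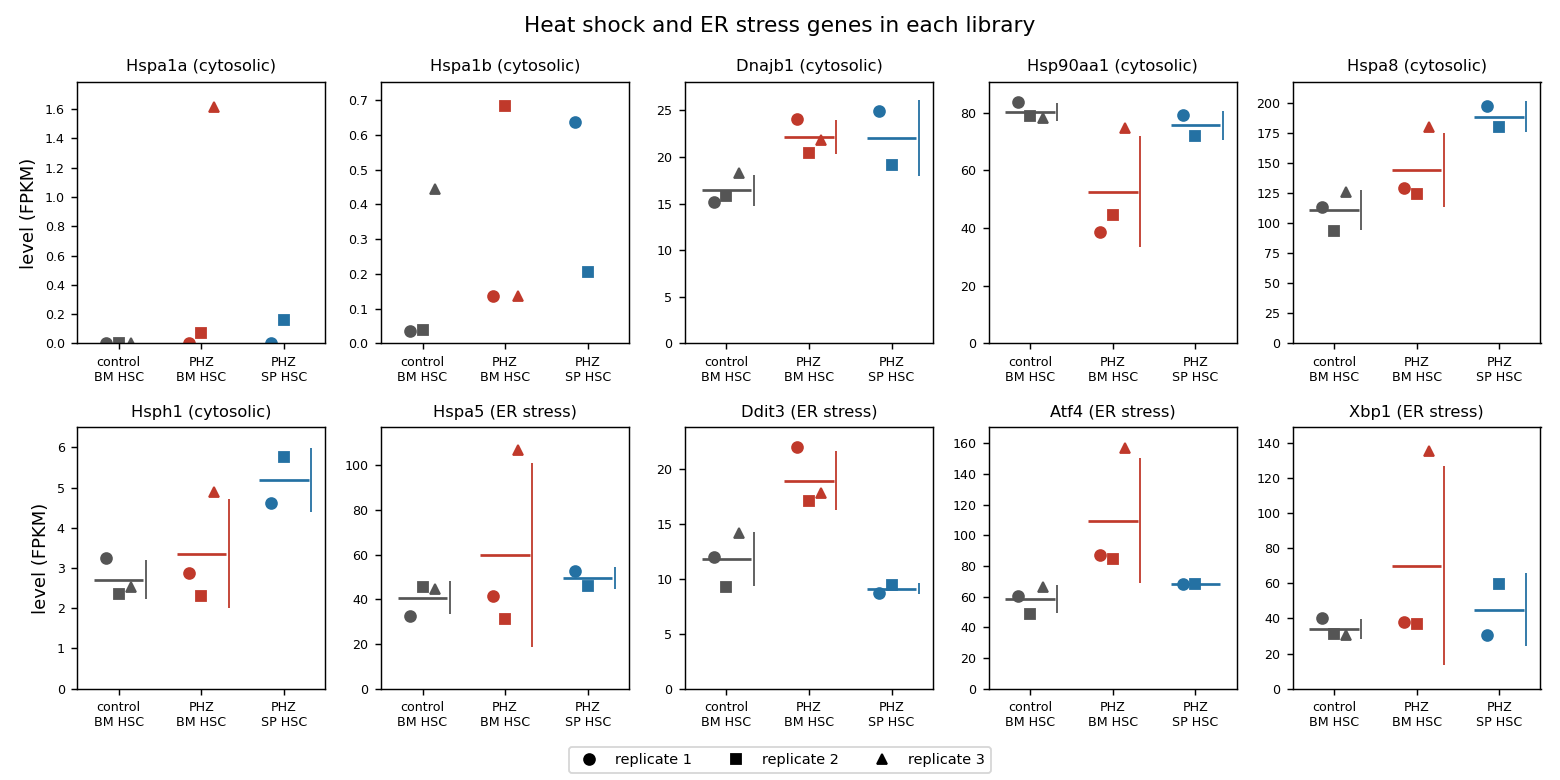
Level of each gene in each library, in FPKM on a linear axis from 0, with a marker shape for the replicate number and colour for the group. Horizontal lines are group means and vertical lines ± 1 SD (n = 3, 3 and 2), not drawn for Hspa1a and Hspa1b. PHZ BM HSC replicate 3 held the highest value of Hspa1a, Hspa5, Atf4 and Xbp1.

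Of the remaining cytosolic chaperones, Dnajb1 encodes an HSP40 co-chaperone that stimulates HSP70 and is a standard HSF1 target. Dnajb1 (chr8:83608175-83612653) measured 15.2, 15.8 and 18.3 FPKM in control BM HSC, 24.1, 20.4 and 21.8 in PHZ BM HSC, and 24.9 and 19.1 in PHZ SP HSC. Every library from PHZ-treated mice was above every control library, but neither difference passed the test. The log2 fold change was 0.41 ± 0.17 (SE) in PHZ BM HSC (limma adjusted p = 0.266) and 0.40 ± 0.20 in PHZ SP HSC (limma adjusted p = 0.354). Over the alternatives the spleen value ranged from 0.21, when replicate 1 of the spleen group was left out, to 0.58, when its replicate 2 was. The spleen group differed from PHZ BM HSC by -0.01 ± 0.20.

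Hspa8 encodes the HSP70 present in unstressed cells and was the highest of the 6 cytosolic chaperone genes in every library. Hspa8 (chr9:40801276-40805202) measured 114, 93.3 and 126 FPKM in control BM HSC, 129, 124 and 180 in PHZ BM HSC, and 197 and 179 in PHZ SP HSC. Both spleen libraries lay above all control libraries, and PHZ BM HSC overlapped both other groups. The spleen group exceeded the control group by 0.77 ± 0.19 on the log2 scale, which missed the threshold (limma adjusted p = 0.0847). Without PHZ BM HSC replicate 3, which adds to the shared estimate of spread, the same difference passed it (limma adjusted p = 0.0431). Over all the alternatives run, its adjusted p ranged from 0.0244 to 0.350. Hsph1, the HSP110 that exchanges nucleotide on HSP70, showed a like order at a far lower level. Hsph1 (chr5:149616843-149636498) measured 3.25, 2.34 and 2.53 FPKM in control BM HSC, 2.87, 2.30 and 4.90 in PHZ BM HSC, and 4.63 and 5.75 in PHZ SP HSC. Its spleen libraries were above all controls, with a log2 fold change of 0.74 ± 0.30 that did not pass the test (limma adjusted p = 0.258).

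Hsp90aa1, the stress-inducible cytosolic HSP90, had the opposite direction in marrow. Hsp90aa1 (chr12:110691036-110696395) measured 83.7, 78.9 and 78.0 FPKM in control BM HSC, 38.8, 44.5 and 74.7 in PHZ BM HSC, and 79.2 and 72.0 in PHZ SP HSC. All 3 PHZ BM HSC libraries were below the controls, replicate 3 by little, and the spleen libraries overlapped the controls. With all libraries, the marrow difference was -0.65 ± 0.21 on the log2 scale and missed the threshold (limma adjusted p = 0.134). Without PHZ BM HSC replicate 3 it was -0.93 ± 0.13 and passed (limma adjusted p = 0.00687), as did the difference of 0.85 ± 0.14 between the spleen group and PHZ BM HSC (limma adjusted p = 0.0272). That library was singled out after its values were seen. It held the PHZ BM HSC value nearest the other groups, so leaving it out could only widen both differences. Over all the alternatives run, each difference passed in 1 fit. The adjusted p ranged from 0.00687 to 0.418 for the first and from 0.0272 to 0.683 for the second. Its constitutive paralog Hsp90ab1, at 457, 475 and 473 FPKM in control BM HSC, 453, 458 and 603 in PHZ BM HSC, and 667 and 624 in PHZ SP HSC, differed from the controls in marrow by a log2 fold change of 0.09, and of -0.04 without PHZ BM HSC replicate 3, neither passing the test. Hsp90aa1 stood at 16.5% to 18.3% of the level of Hsp90ab1 in control BM HSC, at 8.57% to 12.4% in PHZ BM HSC and at 11.5% to 11.9% in PHZ SP HSC. In this ratio, chosen after the values were seen and not tested, neither PHZ group overlapped the controls.

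By limma, 0 of the 8 tested members passed an adjusted p of 0.05 in any comparison. In PHZ BM HSC against control BM HSC 4 of the 8 had an unadjusted p under 0.05, and voom on recovered reads called 0, with 5 at an unadjusted p under 0.05. Across all 11347 genes tested, 2.74% were called in that comparison. In the spleen group against the controls 2 of the 8 had an unadjusted p under 0.05 (voom 0 called and 2 unadjusted), where 0.758% of all genes were called. In the spleen group against PHZ BM HSC it was 3 of the 8 (voom 0 called and 4 unadjusted), where 0.978% of all genes were called. The ranges of the groups did not overlap for 4 of the 8 members between PHZ BM HSC and the controls, against 23.9% of all genes. Between the spleen group and the controls they did not overlap for 5 of the 8, against 28.9% of all genes, and between the spleen group and PHZ BM HSC for 2 of the 8, against 34.8%. The last count rests on PHZ BM HSC replicate 3. In replicates 1 and 2 of that group Hspa8, Hsph1, Hsp90aa1 and Hspa5 also lay below both spleen libraries. The share of all genes without replicate 3 was not computed. The share of all genes with an unadjusted p under 0.05 was 16.6%, 15.8% and 13.5% in the 3 comparisons in this order, which is the background for the unadjusted counts given here and for the lists below. These shares of 8 genes were not tested against the background.

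The 2 sets differed in where their medians lay. The 4 tested cytosolic chaperones had a median log2 fold change of 0.28 in PHZ BM HSC against the controls, 0.57 in the spleen group against the controls and 0.47 in the spleen group against PHZ BM HSC. The 4 ER stress genes had medians of 0.70, 0.26 and -0.52 in the same comparisons, beside medians of 0.01, -0.00 and -0.02 over all genes tested. These medians were not tested, and single members differed from them: the mean level of Hsp90aa1 was highest in the controls, at 80.2 FPKM against 75.6 in spleen, and the means of Dnajb1 were 22.1 in PHZ BM HSC and 22.0 in spleen. When PHZ BM HSC replicate 3 was left out, the marrow medians were 0.08 for the cytosolic set and 0.35 for the ER stress set, and the ER stress median between spleen and PHZ-treated marrow was -0.07, with 2 of the 4 genes, Hspa5 and Xbp1, then higher in spleen. Comparisons here share the control or the PHZ-treated libraries and are not independent of each other.

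**Figure D2:**
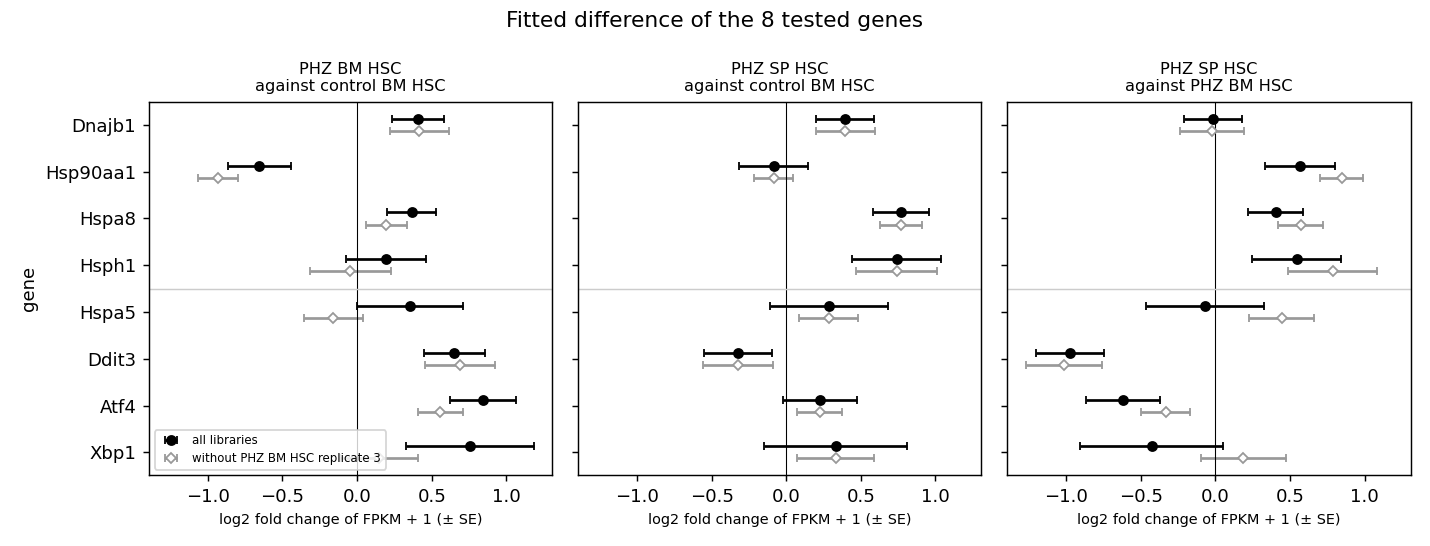
Fitted log2 fold change of FPKM + 1 for the 8 tested genes in the 3 comparisons, with bars of ± 1 SE. Black points use all 8 libraries and open grey points leave out PHZ BM HSC replicate 3. Leaving it out moved Hspa5 and Xbp1 towards or across 0 in marrow and moved Hsp90aa1 further below it.

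The wider cytosolic chaperone system gave 0 calls with all libraries. Among 24 further heat shock genes, 23 were tested and 0 passed by limma in any comparison, with 4, 7 and 8 at an unadjusted p under 0.05 in PHZ BM HSC against control, spleen against control and spleen against PHZ BM HSC (16.6%, 15.8% and 13.5% of all genes). In spleen against control 19 of the 23 were higher, with a median of 0.25. Leaving out PHZ BM HSC replicate 3, Hsp90ab1 passed in both spleen comparisons. Of the 8 subunits of TRiC, the chaperonin that folds actin and tubulin, 0 passed by limma in any comparison. All 8 had a higher level in the spleen group than in the controls (median 0.26), and 7 of 8 were lower in PHZ BM HSC than in control (median -0.09), with 0 at an unadjusted p under 0.05 in either comparison and 3 in spleen against PHZ BM HSC. When PHZ BM HSC replicate 3 was left out the marrow median was -0.23, 0 were called by limma, and 3, 2 and 6 of the 8 had an unadjusted p under 0.05 in PHZ BM HSC against control, spleen against control and spleen against PHZ BM HSC, where 15.2%, 15.4% and 13.2% of all genes did. The level of Hsf1 itself was 10.4, 6.80 and 10.9 FPKM in control BM HSC, 13.0, 11.7 and 15.6 in PHZ BM HSC, and 11.8 and 8.60 in PHZ SP HSC. That of Hsf2, a related factor, lay between 0.499 and 1.67 FPKM. Neither passed the test in any comparison, the lowest limma adjusted p being 0.304 for Hsf1 and 0.341 for Hsf2.

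Among the ER stress genes, Atf4 and Ddit3, the factors of the PERK arm, were the ones that separated PHZ BM HSC from control BM HSC in every library. Atf4 (chr15:80255184-80257545) measured 60.2, 48.9 and 66.6 FPKM in control BM HSC, 87.1, 84.8 and 157 in PHZ BM HSC, and 68.2 and 68.0 in PHZ SP HSC. The lowest PHZ BM HSC library was above the highest library of either other group. The marrow difference of 0.85 ± 0.22 on the log2 scale missed the threshold (limma adjusted p = 0.0740), with a range of 0.0220 to 0.178 over the alternatives. Without PHZ BM HSC replicate 3 it was 0.56 ± 0.15 (limma adjusted p = 0.101). Since Atf4 is controlled largely at translation, its mRNA level is an incomplete measure of the pathway.

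Ddit3 encodes CHOP, a factor of prolonged ER stress. Ddit3 (chr10:127290793-127296291) measured 11.9, 9.23 and 14.1 FPKM in control BM HSC, 21.9, 17.0 and 17.7 in PHZ BM HSC, and 8.72 and 9.42 in PHZ SP HSC. All PHZ BM HSC libraries were above all others, and replicate 3 was not apart from its group here. The log2 fold change was 0.65 ± 0.20 in PHZ BM HSC against control (limma adjusted p = 0.125) and -0.98 ± 0.23 in PHZ SP HSC against PHZ BM HSC (limma adjusted p = 0.0760), neither past the threshold. Over the alternatives, the second adjusted p ranged from 0.0530 to 0.327.

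Hspa5 encodes BiP, the main HSP70 of the ER lumen, and its promoter carries the ER stress element shown above. Hspa5 (chr2:34772090-34776529) measured 32.3, 45.4 and 44.5 FPKM in control BM HSC, 41.5, 31.1 and 107 in PHZ BM HSC, and 52.8 and 45.9 in PHZ SP HSC. Apart from PHZ BM HSC replicate 3, the values of all groups lay between 31.1 and 52.8 FPKM. The marrow difference was 0.36 ± 0.35 (limma adjusted p = 0.663) with replicate 3 and -0.16 ± 0.20 (limma adjusted p = 0.768) without it. Xbp1, whose spliced mRNA encodes the factor of the IRE1 arm, followed the same library. Xbp1 (chr11:5520641-5525993) measured 40.5, 31.0 and 30.5 FPKM in control BM HSC, 38.2, 36.6 and 136 in PHZ BM HSC, and 30.3 and 59.9 in PHZ SP HSC. The marrow difference was 0.76 ± 0.43 (limma adjusted p = 0.402), and 0.15 ± 0.26 (limma adjusted p = 0.851) without that library. The files give 1 value per gene, so spliced and unspliced Xbp1 were not separated.

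The sensors of the unfolded protein response did not pass the test. Of 12 sensors and regulators, 0 were called by limma in any comparison, with 2, 0 and 1 at an unadjusted p under 0.05 in the 3 comparisons. Ern1 ranged from 3.45 to 3.99 FPKM in control BM HSC, from 4.74 to 5.57 in PHZ BM HSC and from 1.78 to 3.83 in PHZ SP HSC, and Atf6 from 2.67 to 3.28, 4.13 to 4.82 and 2.63 to 3.42. For both genes all PHZ BM HSC libraries lay above all others, but no comparison passed the test (lowest limma adjusted p = 0.288 for Ern1 and 0.352 for Atf6). Eif2ak3 (PERK) lay between 0.490 and 1.69 FPKM and Eif2ak1, the heme-regulated kinase that signals to the same translation factor, between 5.26 and 8.84, with overlapping groups in marrow.

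Of 24 genes downstream of ATF4 and CHOP, 21 were tested, and 3 rose and 0 fell in PHZ BM HSC against control BM HSC by limma, while 18 did not pass. The share called over all genes was 2.74% in that comparison, and the list was not tested against it. The 3 were Ppp1r15a, Ddit4 and Vldlr. Ppp1r15a encodes GADD34, which restores translation after the PERK signal, and measured 7.0, 2.49 and 4.42 FPKM in control BM HSC, 50.5, 44.8 and 36.2 in PHZ BM HSC, and 12.3 and 16.0 in PHZ SP HSC. It rose by 3.06 ± 0.28 on the log2 scale in PHZ-treated marrow (limma adjusted p = 0.000303) and was lower in the spleen group than in PHZ BM HSC by a log2 fold change of -1.56 ± 0.32 (limma adjusted p = 0.0443). The second call was lost without PHZ BM HSC replicate 3, where the difference was -1.69 ± 0.35 (limma adjusted p = 0.0562), and 0 of the 21 genes passed. Ddit4, an inhibitor of mTOR signalling, rose by 1.99 ± 0.31 (limma adjusted p = 0.00662) and Vldlr, a lipoprotein receptor, by 1.84 ± 0.32 (limma adjusted p = 0.0103). The median of all 21 was 0.09, with 12 of 21 higher, beside a median of 0.01 over all genes, and without PHZ BM HSC replicate 3 it was -0.13, with 9 of 21 higher. The 3 stayed called without PHZ BM HSC replicate 3, and Psat1, an enzyme of serine synthesis, fell. In spleen against control 0 of the 21 were called by limma, with 5 at an unadjusted p under 0.05.

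ER folding genes showed no calls. Of 19 chaperones, disulfide isomerases and co-factors of the ER, 0 passed by limma in any comparison, with 4, 3 and 0 at an unadjusted p under 0.05, and the marrow median was -0.00 with all libraries and -0.18 without PHZ BM HSC replicate 3. Between spleen and PHZ BM HSC the median was 0.09, and without that library it was 0.23, with 0 called by limma and 5 of the 19 at an unadjusted p under 0.05. Sdf2l1, a co-factor of BiP, fell in PHZ BM HSC against control when replicate 3 was left out (limma adjusted p = 0.0203). Hsp90b1, the HSP90 of the ER, lay between 20.8 and 22.6 FPKM in control BM HSC, between 16.8 and 27.3 in PHZ BM HSC and between 26.7 and 28.6 in PHZ SP HSC. Of 10 genes of ER-associated degradation, which removes misfolded protein, 8 were higher in PHZ BM HSC and 9 in spleen than in the controls, with medians of 0.44 and 0.23. Leaving out PHZ BM HSC replicate 3, 5 of the 10 were higher in marrow, with a median of 0.12. By limma 0 were called, with 2 at an unadjusted p under 0.05 in each of these comparisons.

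**Figure D3:**
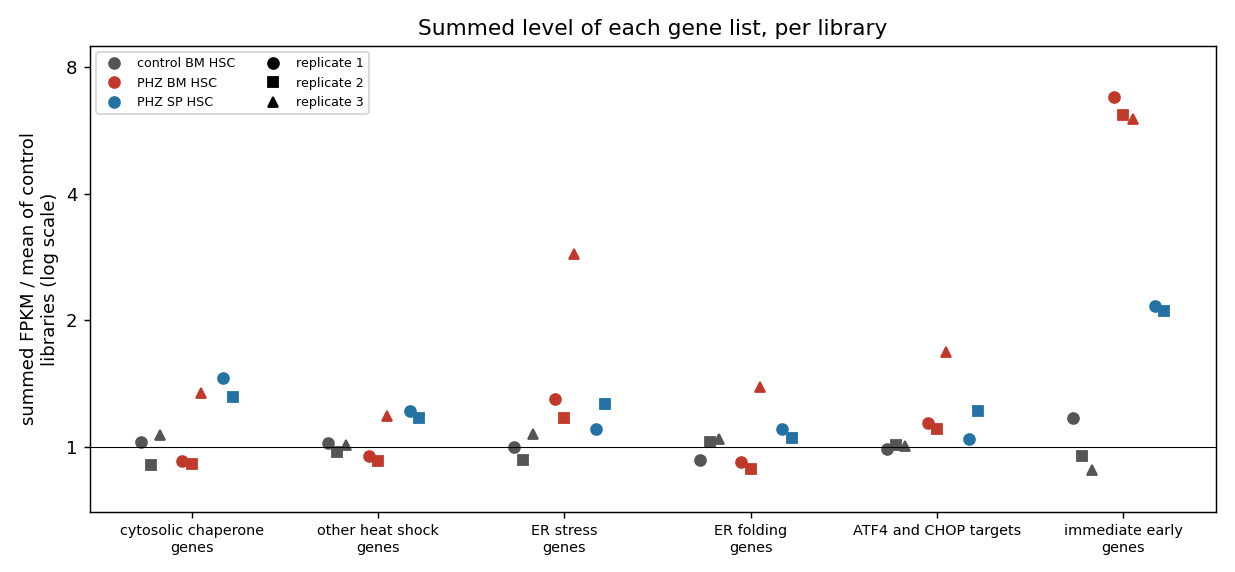
Summed FPKM of 6 gene lists in each library, divided by the mean of the control libraries, on a log axis. Each point is a library, coloured by group and shaped by replicate number. PHZ BM HSC replicate 3 lay above its group for all lists except the immediate early genes, where the 3 PHZ BM HSC libraries lay together.

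PHZ BM HSC replicate 3 was set apart from the other 2 libraries of its group, more widely in ER stress genes than in heat shock genes. On the log2 scale Xbp1 was higher there by 1.83 and Hspa5 by 1.55 than the mean of replicates 1 and 2, ranking 32 and 59 among the 11347 genes tested. Atf4 was higher by 0.86 and Hsp90aa1 by 0.83, whereas Ddit3 and Dnajb1 differed by -0.12 and -0.02. The largest difference of all genes was that of Hspb1, a small heat shock protein, at 38.0 FPKM in this library and at most 1.03 FPKM in any other. Hspb1, Hspa2, Hspa4l, Manf, Hyou1 and the single neutrophil markers are named here after their values were seen. Manf (32.7 FPKM, against 15.0 and 11.7 in replicates 1 and 2) and Hyou1 (7.06, against 2.88 and 2.58), both ER stress targets, were of the same kind. The library held the highest value of 9 of 19 ER folding genes (47.4%), 5 of 10 degradation genes and 13 of 21 ATF4 and CHOP targets (61.9%), against 11.4% of all genes tested. It held that of 4 of 23 further heat shock genes (17.4%) and 3 of 12 sensors (25.0%). Among the further heat shock genes, Hspa2 and Hspa4l differed from the mean of replicates 1 and 2 by -0.93 and -0.82. Higher by more than 1 on the log2 scale were 2 of 4 ER stress genes, 0 of 4 tested cytosolic chaperones and 1 of 23 further heat shock genes, Hspb1. The share over all genes tested was 1.81%. These shares were computed after the library had been seen to stand apart and were not tested. Summed neutrophil markers were 505 to 1055 FPKM over the PHZ BM HSC libraries and in replicate 3 against the mean of the other 2, 3 of 8 were higher by more than 1 on the log2 scale, among them S100a8 at 341 FPKM against 158 and 144, and 2 were lower by more than 1, Elane and Mpo, while B cell and plasma cell markers stayed at 29.6 to 33.8 FPKM. Their part in the result was not tested. The library was also the deepest, at 13212932 reads.

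**Figure D4:**
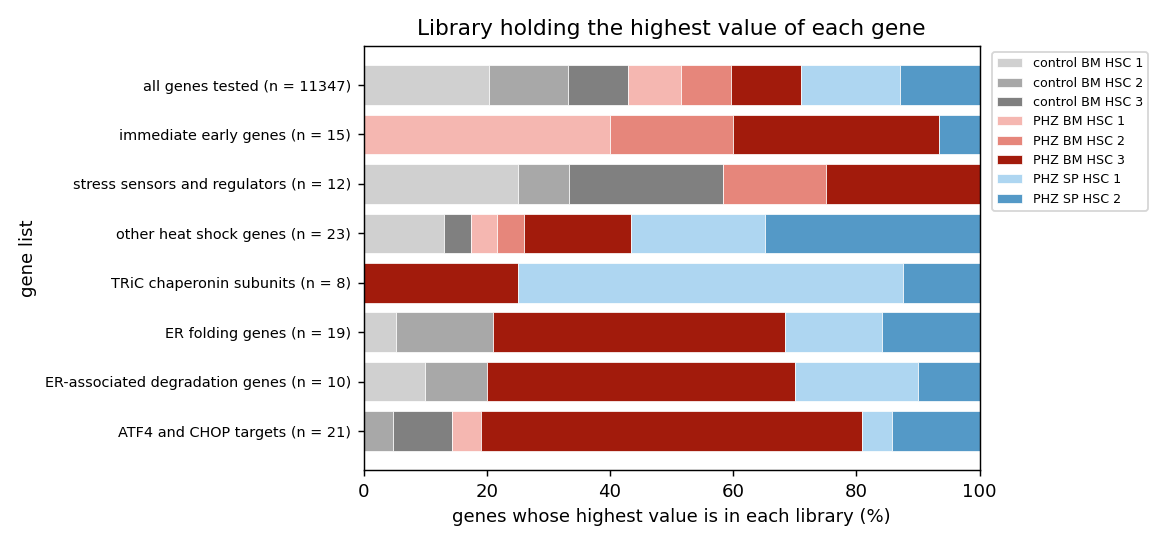
Share of the tested genes of each list, in percent, whose highest value lies in each of the 8 libraries, as stacked bars. PHZ BM HSC replicate 3 (dark red) took 11.4% of all genes tested, 47.4% of ER folding genes and 61.9% of ATF4 and CHOP targets.

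Immediate early genes, which like heat shock genes are known to respond to tissue dissociation, gave many calls in marrow. Of 15 tested, 13 rose and 0 fell in PHZ BM HSC against control BM HSC by limma, with a median of 2.24, where 2.74% of all genes were called. Of the 4 tested cytosolic chaperones 0 were called, and 2 had an unadjusted p under 0.05, where 16.6% of all genes did. With 4 genes and a share called of 2.74%, the count of 0 does not set the chaperones apart from other genes. Fos measured 1.13, 2.02 and 2.98 FPKM in control BM HSC, 152, 140 and 162 in PHZ BM HSC, and 6.08 and 13.8 in PHZ SP HSC. It rose by 5.69 ± 0.29 on the log2 scale in marrow (limma adjusted p = 4.25e-06) with no overlap between groups. Jun rose by 3.45 ± 0.24 and Egr1 by 2.27 ± 0.31 in the same comparison (limma adjusted p = 3.32e-05 and 0.00368). Zfp36, which speeds the decay of cytokine mRNA, rose by 3.32 ± 0.18 and Junb by 3.14 ± 0.18. In spleen against control 5 of the 15 rose, where 0.758% of all genes were called, among them Jun by 2.43 ± 0.27 (limma adjusted p = 0.00208). In spleen against PHZ BM HSC 8 of the 15 fell, where 0.978% of all genes were called. The 4 with the smallest p were Fos, Fosb, Junb and Ier2 (log2 fold changes of -3.89, -2.73, -1.83 and -1.49). PHZ BM HSC replicate 3 held the highest value of its group for 5 of the 15 (33.3%), against 39.7% of all genes tested. Jun was lowest there, at 75.7 FPKM against 146 and 117 in replicates 1 and 2. Socs3, a feedback inhibitor of cytokine signalling named after its values were seen, was higher there, at 25.7 FPKM against 6.17 and 9.88. Ppp1r15a, counted above as a CHOP target, is also an early response gene, and was lowest of its group in replicate 3. Atf4 was highest there, and so were Ddit4 and Vldlr, the other 2 called targets. Of all 21 tested targets 19 were highest of their group there (90.5%), against 39.7% of all genes tested. The cause of the Ppp1r15a values was not tested.

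Markers of other cells moved with the spleen group, in which Hspa8 and Hsph1 were highest. Over 8 erythroid markers the summed level was 128 to 285 FPKM in control BM HSC, 180 to 340 in PHZ BM HSC and 939 to 1147 in PHZ SP HSC. Of the 8, 5 rose in spleen against control by limma, where 0.758% of all genes were called, led by Slc4a1 (2.51 ± 0.31, limma adjusted p = 0.00390). Hbb-bt and Hba-a1 were among the others, at 2.51 and 2.27, the globin genes having near-identical copies that make their split uncertain. The sum of 8 neutrophil markers was 428 to 737, 505 to 1055 and 1410 to 1792 FPKM, with S100a8 called in spleen (1.72 ± 0.32, limma adjusted p = 0.0422) and Prtn3 in PHZ BM HSC (0.96 ± 0.15, limma adjusted p = 0.00750), each against the controls. That of 8 macrophage markers was 5.13 to 15.6, 6.77 to 21.1 and 38.3 to 61.6 FPKM, nearly all of it Cd68 in spleen, with Adgre1 at or below 0.287 FPKM in every library. The sum of 7 T and NK cell markers, most of it Nkg7, overlapped between the groups. Klrb1c rose in spleen (3.19 ± 0.28, limma adjusted p = 0.000866). The Cd3 genes were too low to test, with Cd3e at or below 0.679 FPKM. Cd3d measured 1.23 and 0.953 FPKM in spleen, at most 0.767 in PHZ BM HSC and 0 in control BM HSC. Cd3g measured 0.328 and 0.588 FPKM in spleen and at most 0.166 in the other groups. That of 7 B cell and plasma cell markers was 46.3 to 58.7 FPKM in spleen and 29.8 to 51.3 in control, with Pax5 at or below 0.222 FPKM. The part of these cells in the chaperone levels was not tested. In bulk RNA, more cells of a type and more RNA per cell cannot be told apart.

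Many proliferation genes fell in PHZ-treated marrow. Of 20 proliferation genes, 12 fell, 0 rose and 8 did not pass in PHZ BM HSC against control BM HSC by limma (median -1.68), where 2.74% of all genes were called. In PHZ SP HSC against control 0 were called, where 0.758% of all genes were, with 2 at an unadjusted p under 0.05. Top2a, Rrm2, Mki67 and Ccnb2 fell by 2.0, 1.92, 1.82 and 2.64 on the log2 scale in marrow. In spleen against PHZ BM HSC, where 0.978% of all genes were called, 4 rose: Rrm2, Ccna2, Plk1 and Top2a, by 2.75, 2.24, 1.85 and 1.52. The group in which the proliferation genes were lowest was thus the one in which Hsp90aa1 was lowest, and in it replicate 3 had the highest Hsp90aa1 and, for 18 of the 20 (90.0%), the highest proliferation value of its group, against 39.7% of all genes tested. Whether these values are connected was not tested.

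The genes most alike to each set were found over the 8 libraries by Pearson's r with the mean of the 4 tested members on a standardized log2 scale, as a description across libraries of 3 groups. For the cytosolic chaperones they were Mt2 (r = 0.97), Cfl1 (0.96), Uchl1 (0.95), Gm15915 (0.94) and F2rl2 (0.94). Mt2, a metallothionein that binds zinc and is induced by metals and glucocorticoids, measured 1.22, 0.376 and 2.12 FPKM in control BM HSC, 3.08, 2.90 and 42.0 in PHZ BM HSC, and 46.4 and 27.8 in PHZ SP HSC. PHZ BM HSC replicate 3 thus stood with the spleen libraries for Mt2. For the ER stress genes they included Rpl8 (0.96), Cish (0.94), Scarna6 (0.94) and Plcg2 (0.92). Cish, a feedback inhibitor of cytokine signalling, measured 14.9, 9.41 and 8.95 FPKM in control BM HSC, 18.1, 19.3 and 90.3 in PHZ BM HSC, and 9.56 and 19.8 in PHZ SP HSC, with replicate 3 again far above the others.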

How the data were processed

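RNA-seq of sorted HSCs was analysed in 8 libraries of 3 groups, taken from the sample titles. The authors amplified cDNA with SMART-Seq2, built libraries with Nextera XT, aligned reads to mm10 by STAR and compared groups by DESeq2. The gene counter, annotation and handling of strand are not given in the sources used here. The authors deposited FPKM values in 3 tables, scaled in separate sets of libraries, and 2 tables of their own DESeq2 comparisons (fold changes and p-values), which were not used. The marrow columns are named WBM where the titles say BM HSC, and were taken as HSCs.

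Reads were worked back from the FPKM values, of which all 110442 above 0 came out whole within 0.01 reads, and FPKM was rescaled with median-of-ratios factors over all 8 libraries. This moved no library by more than 1.05%. As the unit was FPKM, the count test planned for raw counts was not used. limma 3.58.1 in R 4.3.3 was fitted to log2(FPKM + 1) with trend and robust options (statmod 1.5.0), with group as the factor, over the 11347 genes with at least 1 FPKM in 2 libraries, in two-sided tests whose p-values were adjusted (Benjamini-Hochberg) over all of them, at a threshold of 0.05. The fit was tested on simulated data. Tables and figures were made with Python 3.11.15, pandas 2.3.3, numpy 2.4.6 and matplotlib 3.10.9.

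The members and lists were chosen with earlier results of these data known. Named genes were all members, 12 sensors, chaperones and early genes whatever their values, at most 4 called genes per list and direction with the smallest p, and the 5 genes most alike to each set. Other genes are named as chosen after their values were seen. A few genes that the rule names are not reported here. Coordinates and older symbols were taken from RefSeq (GRCm38) by Entrez gene ID. Alternatives were another pseudocount, other filters, other scalings, voom on recovered reads, fits to the groups compared, a replicate block and leaving out each library. Replicate numbers did not pair the libraries.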

Additional observations from a re-analysis of the deposited data

How the results depend on the processing

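The direction and call of the tested members held in 390 of 408 alternative fits, with 12 changes of sign and 6 gains of a call. With the FPKM as deposited, a pseudocount of 0.1 FPKM, either other filter, total reads, voom or only the groups compared, the number of members called stayed at 0 in every comparison. Quantile normalization called 1 member in PHZ BM HSC against control BM HSC (Atf4). Leaving out single libraries gave 0 to 1 members called in each comparison, 1 of them each time being without PHZ BM HSC replicate 3. Under it the single calls were Hsp90aa1 in PHZ BM HSC against control and in spleen against PHZ BM HSC, and Hspa8 in spleen against control.

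Without single libraries, the median log2 fold change of the cytosolic chaperones was 0.076 to 0.42 in PHZ BM HSC against control, 0.46 to 0.59 in spleen against control and 0.34 to 0.68 in spleen against PHZ BM HSC. That of the ER stress genes was 0.35 to 0.86, 0.04 to 0.29 and -0.76 to -0.073. Over all genes, the calls numbered 311, 86 and 111 in these comparisons and ranged over the alternatives from 115 (without PHZ BM HSC replicate 2) to 344, from 14 (without PHZ SP HSC replicate 1) to 93, and from 6 (without PHZ SP HSC replicate 2) to 154.

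With the replicate block, 1 member was called in PHZ BM HSC against control BM HSC (Atf4) and 1 in spleen against control (Hspa8). Under the block, Hsp90aa1 was 0.044 in spleen against control, and Dnajb1 was 0.019 and Hspa5 0.22 in spleen against PHZ BM HSC. Same-numbered libraries deviated together with correlations of -0.01 to 0.06, and not every library correlated best with its own number, so they share only a number.

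Signs also changed among fits without single libraries. In PHZ BM HSC against control, Hsph1 ranged from -0.044 to 0.37 and Hspa5 from -0.16 to 0.71, both lowest without PHZ BM HSC replicate 3. In spleen against control, Xbp1 ranged from -0.15 (without PHZ SP HSC replicate 2) to 0.81. In spleen against PHZ BM HSC, Dnajb1 ranged from -0.20 to 0.17 (highest without PHZ SP HSC replicate 2), and Hspa5 from -0.43 to 0.44 and Xbp1 from -0.91 to 0.19, both highest without PHZ BM HSC replicate 3. All these are log2 fold changes that did not pass the test, and the cause was not tested. No scaling moved the median of all genes by more than 0.1.

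With 2 or 3 libraries per group, Hspa1a and Hspa1b were too low to test, and Rn45s took much of each library.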
